A study of Bos taurus with 27 samples.

Results

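ENSBTAG00000000836 and ENSBTAG00000001517, written gene 836 and gene 1517 from here on, are 2 of the 19994 cattle gene identifiers counted in single embryos on day 15 of pregnancy. They were chosen by identifier, and selected on measured values: a high mean in counts per 1000000 (CPM, the gene's count over the library's total count, scaled to 1000000), a shallow increase over the embryos' size number, and a lower mean in short omega-3 than in short omega-6 embryos. Levels over size and diet therefore describe the pair and carry no test below. The choice did not use the sex letter, the difference in size slope between diets or sequencing depth, and tests are given for these. Tested too is the correlation left after size and diet are fitted, although the fit may leave part of the trends used in the choice.

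The series asked how the dam's diet acts on the embryo. It holds 27 embryos with 1 library each: 6 long and 10 short embryos whose dams were fed omega-3, and 11 short embryos whose dams were fed omega-6. Long embryos had size numbers from 10.5 to 20.3, short omega-3 embryos from 0.4 to 9.5 and short omega-6 embryos from 1.4 to 7.7; the labels give no unit for this number. No long omega-6 embryo was analysed here, and the labels give neither a control diet, nor dams, nor batches, so the p-values rest on the variation among embryos, some of which may share a dam.

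On these days of pregnancy the cattle embryo floats unattached in the uterus. Its outer layer, the trophectoderm, which later forms the placenta's fetal part, grows from a sphere into a long filament while the inner cells that form the body stay few, so RNA from a whole embryo is mostly that of extraembryonic cells. The filament secretes interferon tau, the signal by which the cow recognises the pregnancy, and embryos that lengthen poorly are often lost. The files do not pair identifiers with names, and 0 of the identifiers were found in the RefSeq gene table used here, so what the pair encodes, where the genes lie and how similar their sequences are was not analysed here. The labelled tissue could not be set against marker genes for the same reason.

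Total counts ran from 17931620 to 29868584 per embryo. Embryos 22 and 25, both short omega-6, stood apart from the rest: their median correlations with the other libraries over 11919 genes were 0.928 and 0.934, against 0.951 in the smallest embryo (number 14) and at least 0.965 in the other 24. Embryo 07, a long embryo lettered f, went against its letter. It had 926 counts (41.1 CPM) of ENSBTAG00000045750, which had the largest log2 excess of m over f among the genes called between the letters; the 15 m embryos had 10.5 to 78.1 CPM of it and the other 11 f embryos at most 4 counts.

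Both genes were among the most counted in every embryo. Gene 836 averaged 12026 CPM ± 1541 (SD, n = 27) and gene 1517 averaged 11801 CPM ± 2207 (SD, n = 27), ranks 5 and 6 by mean CPM. Within single embryos gene 836 ranked from 2 to 5 and gene 1517 from 3 to 7. Together they took 2.38% of all counts on average, from 1.87% to 3.16%. The next genes outside the pair were the gene ranked 4, with 12484 CPM, and the gene ranked 7, with 8738 CPM, and neither increased with size (slopes of -0.10 and -0.09 log2 units per doubling of the size number). An increase was not particular to the pair, however. Of the 20 genes of highest mean CPM, 11 had slopes above 0, the pair included. Slopes steeper than that of gene 836 numbered 6, gene 1517 among them, and 4 were steeper than that of gene 1517. At these counts the 95% Clopper-Pearson interval of a single embryo's CPM reached at most 0.42% of the value to either side, which covers counting error only. Differences of several percent between embryos thus exceeded counting error by far, and the spread among embryos set the precision.

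Gene 836 was steadier than gene 1517. Its highest value, 14864 CPM in embryo 18, was 1.55 times its lowest, 9599 CPM in embryo 05. Gene 1517 ran from 9092 CPM in embryo 05 to 17567 CPM in embryo 22, a 1.93-fold range. The coefficient of variation (SD over mean) was 12.8% and 18.7%. Among the 20 genes of highest mean CPM, whose coefficients ran from 9.81% to 65.3%, 4 varied less than gene 836 and 11 less than gene 1517. Once diet, size and letter were modelled, the biological coefficient of variation estimated by edgeR was 15.5% for gene 836 and 19.9% for gene 1517, against a median of 20.6% over the 11919 genes. It is another measure, taken after another scaling of the libraries, and cannot be compared with the coefficients above.

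By group, long embryos had the highest levels of both genes and short omega-3 embryos the lowest. Gene 836 measured 12612, 13494 and 14607 CPM (lowest, median and highest) in the 6 long omega-3 embryos. In the 10 short omega-3 embryos the same values were 9599, 10760 and 12980 CPM, and in the 11 short omega-6 embryos 10156, 11779 and 14864 CPM. Of the 10 short omega-3 embryos, 9 lay below every long embryo, and 1 short omega-6 embryo, number 18, lay above all of them. In bulk RNA of whole embryos, a change in the number of cells that make a transcript and a change in the amount per cell cannot be told apart.

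For gene 1517 the lowest, median and highest values were 12043, 13758 and 15427 CPM in long omega-3 embryos. Short omega-3 embryos had 9092, 10096 and 12770 CPM, and short omega-6 embryos 9150, 11086 and 17567 CPM. Here 8 of the 10 short omega-3 embryos lay below every long embryo; the 2 others, numbers 02 and 11, were the largest of their group (size numbers 8 and 9.5). Embryo 22 alone exceeded the long embryos.

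The group means followed the same order for both genes. Gene 836 averaged 13473 ± 736 CPM (SD) in the 6 long embryos, 12166 ± 1576 CPM (SD) in the 11 short omega-6 embryos and 11005 ± 1104 CPM (SD) in the 10 short omega-3 embryos. Gene 1517 averaged 13739 ± 1455, 11910 ± 2447 and 10518 ± 1379 CPM in the same order. The difference between long and short omega-3 embryos, 1.22-fold for gene 836 and 1.31-fold for gene 1517, exceeded the SD of either group. Short omega-6 embryos differed from each of the omega-3 groups by less than their own, wider SD. For both genes these differences were larger than the SD of the omega-3 group compared.

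**Figure D1:**
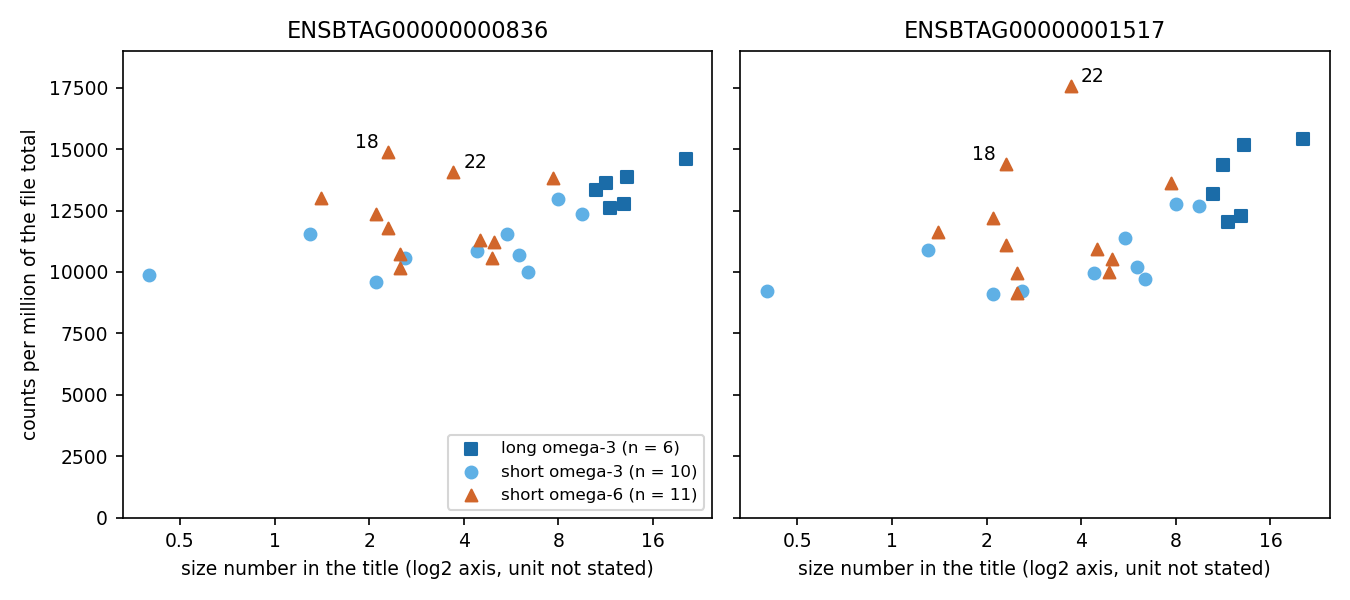
CPM of each gene (vertical axis) against the size number on a log2 axis, 1 point per embryo, by group. In both panels the long embryos lie high together, and the short omega-6 embryos scatter with embryos 18 and 22 above the rest. The short omega-3 embryos show no steady climb from 0.4 to 6.4 and are highest at size numbers 8 and 9.5.

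Across all embryos, values were higher at larger size. With the log2 size number fitted beside diet and letter, edgeR gave gene 836 a slope of 0.10 ± 0.04 (SE) and gene 1517 a slope of 0.14 ± 0.05 (SE), in log2 units per doubling of the size number over all 27 embryos. Fitted in the 16 omega-3 embryos alone the slopes were 0.12 ± 0.02 and 0.16 ± 0.03 (SE). In the 21 short embryos alone, with no long embryo in the fit, they were 0.06 ± 0.05 and 0.09 ± 0.06 (SE), lower than over all embryos. In the 11 omega-6 embryos alone they were -0.02 ± 0.14 and 0.02 ± 0.17 (SE), with intervals of 1 SE on both sides of 0.

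The unadjusted relation gives the same picture. Over all 27 embryos the log2 CPM of gene 836 correlated with log2 size at r = 0.487 (Spearman rho = 0.435), and that of gene 1517 at r = 0.519 (rho = 0.530). Among the 16 omega-3 embryos r was 0.763 and 0.770 (rho = 0.841 and 0.850), and among the 10 short ones of these 0.531 and 0.598 (rho = 0.552 and 0.673), with unadjusted slopes of 0.054 and 0.078 per doubling against 0.098 and 0.134 with the long embryos. Among the 11 omega-6 embryos r was -0.0499 and 0.0982 (rho = -0.233 and -0.160). These coefficients describe trends that were used to choose the genes.

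Whether the slope differed between diets was not part of the choice and could be tested in the 21 short embryos. The slope in omega-3 exceeded that in omega-6 by 0.09 ± 0.12 (SE) for gene 836 and by 0.06 ± 0.16 (SE) for gene 1517. Neither difference passed (edgeR quasi-likelihood test, adjusted p = 0.843 and 0.899). In this comparison 0 of 11534 genes were called at an adjusted p below 0.05 (0%), with 505 at an unadjusted p below 0.05. DESeq2 and limma-voom each called 1 gene, and neither was a member. These standard errors are as large as the slopes themselves, so a slope of similar size in both diets and a flat one in omega-6 were not distinguishable with these embryos.

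**Figure D2:**
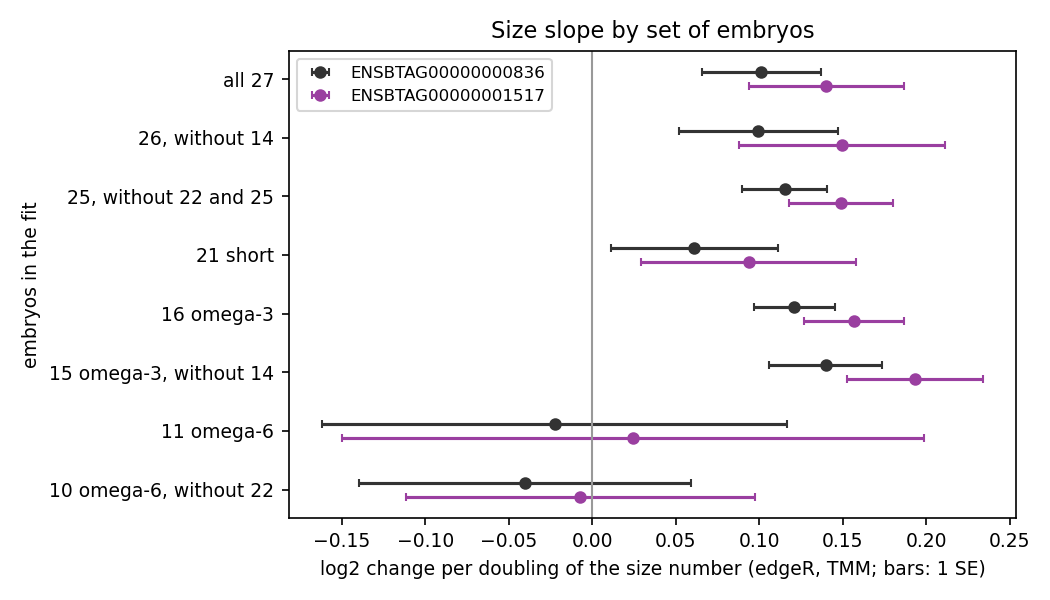
Size slope of each gene (log2 change per doubling of the size number, horizontal axis; points are edgeR estimates and bars 1 SE) for 8 sets of embryos. Slopes are positive in every set that includes omega-3 embryos and lie near 0 with wide bars in the 2 omega-6 sets.

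Diet was compared within short embryos. Relative to short omega-6, the short omega-3 mean was 0.905 times as high for gene 836 and 0.883 times for gene 1517 in CPM. Under the trimmed mean of M-values (TMM), which scales each library to the bulk of its genes, the log2 differences (omega-3 minus omega-6) were -0.22 ± 0.10 and -0.27 ± 0.13 (SE). Without TMM they were -0.15 ± 0.07 and -0.19 ± 0.10 (SE). Among the 20 genes of highest mean CPM, 11 had a lower mean CPM in short omega-3 than in short omega-6 embryos, the pair included. In these 20 genes the ratio of means ran from 0.849 to 1.55. It was lower than that of gene 836 in 4, gene 1517 among them, and lower than that of gene 1517 in 2. The pair's values overlapped widely: 3 of the 10 short omega-3 embryos lay below every omega-6 embryo for gene 836, and 1 for gene 1517.

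Part of this difference came with embryos 22 and 25. Without them the log2 differences were -0.12 ± 0.08 for gene 836 and -0.11 ± 0.10 for gene 1517 (SE). Without embryo 22 alone they were -0.15 and -0.13, and limma-voom, which gives less weight to libraries that fit the model poorly, gave -0.06 and -0.05. The mean of gene 1517 in short omega-6 embryos was 11344 ± 1655 CPM (SD, n = 10) without embryo 22, and 11313 ± 1753 CPM (SD, n = 9) without both. That of gene 836, 12166 CPM with all 11, moved less, to 11977 ± 1523 CPM (SD, n = 10) and 11863 ± 1570 CPM (SD, n = 9). With log2 size in the model over all 27 embryos, the diet difference was -0.19 ± 0.09 and -0.24 ± 0.12 (SE), and -0.08 ± 0.07 and -0.07 ± 0.08 (SE) without those 2 embryos. It was -0.11 ± 0.07 and -0.15 ± 0.09 (SE) without TMM, -0.11 and -0.10 without embryo 22 alone, and -0.07 for both genes with limma-voom.

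Embryos of similar size can be set side by side in 2 size ranges, picked after the values were seen. At size numbers from 4.4 to 6.4, gene 836 ran from 10001 to 11550 CPM in 4 omega-3 embryos. It ran from 10567 to 11282 CPM in 3 omega-6 embryos, whose size numbers spanned only 4.5 to 5. Gene 1517 ran from 9716 to 11365 CPM and from 9991 to 10927 CPM there, so for both genes the omega-6 values fell inside the omega-3 range. At size numbers from 2.1 to 2.6, the 2 omega-3 embryos had 9599 and 10567 CPM of gene 836, and the 5 omega-6 embryos had 10156 to 14864 CPM. Gene 1517 measured 9092 and 9225 CPM in the former and 9150 to 14377 CPM in the latter. The means there were 10083 and 11977 ± 1828 CPM for gene 836 and 9159 and 11353 ± 2041 CPM for gene 1517 (omega-3, then omega-6 with SD, n = 5), so they differed by slightly more than the omega-6 SD, with overlapping values. Outside both ranges, omega-6 embryos 26 (7.7) and 25 (1.4) had size numbers close to those of omega-3 embryos 02 (8) and 13 (1.3). Gene 836 measured 13822 against 12980 CPM and 13005 against 11562 CPM in these pairs, omega-6 first. Gene 1517 was likewise higher in the omega-6 embryo of each.

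The pair moved together across embryos. The log2 CPM of gene 836 and gene 1517 correlated at r = 0.949 (Spearman rho = 0.969, n = 27), and at r = 0.976 among omega-3 (n = 16) and 0.914 among omega-6 embryos (n = 11). Without embryo 22 the omega-6 value was 0.976 (n = 10). Within the 6 long embryos r was 0.958, and the embryos stood in the same order for both genes. Both values of an embryo come from 1 library and are divided by the same total, and like trends over size were part of the choice.

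What remained after size, diet and sex letter were fitted was therefore tested. The residuals of the genes correlated at r = 0.927 (permutation p = 1e-05, adjusted 1.5e-05) and rho = 0.958 (permutation p = 1e-05, adjusted 1.5e-05) over 27 embryos, where 1e-05 is the smallest p that these permutations can give. Leaving out the 2 embryos with the farthest residuals of gene 836 gave r = 0.926. Within the omega-3 embryos, fitted alone, r was 0.942 (permutation p = 1e-05, adjusted 1.5e-05) and rho 0.950 (permutation p = 1e-05, adjusted 1.5e-05, n = 16), and leaving out the 2 farthest gave r = 0.927. Within the omega-6 embryos r was 0.926 (permutation p = 6e-05, adjusted 6e-05) and rho 0.918 (permutation p = 0.00017, adjusted 0.00017, n = 11), and leaving out the 2 farthest gave r = 0.950. Adjustment was over these 3 sets. The share of this correlation that comes from the common library was not tested. Nor was the share from any size trend that a straight line in log2 size leaves in the residuals. Long embryos 01 and 07, for example, kept residuals of 0.14 and 0.15 for gene 836. The p-values therefore do not separate the pair's likeness from the trends used to choose it.

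**Figure D3:**
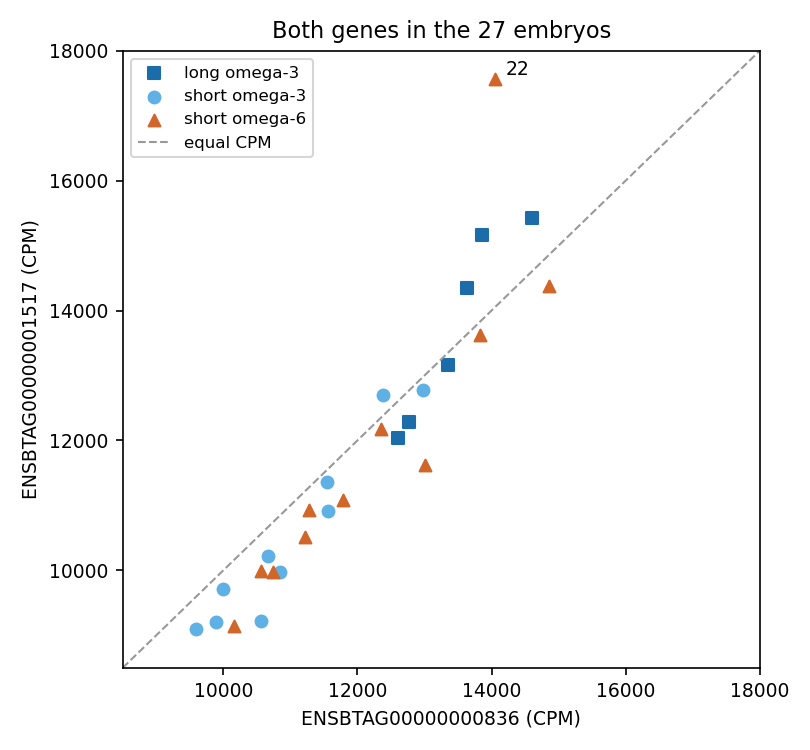
CPM of gene 1517 (vertical) against CPM of gene 836 (horizontal), 1 point per embryo, with a dashed line of equal CPM. The points form a narrow band steeper than the line, below it at low levels and on both sides of it at high ones. Embryo 22 stands above the band at 17567 CPM of gene 1517.

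Among all 11918 other genes tested, each gene of the pair was the one most like the other. The pair was chosen for like levels and trends over these same embryos, so this rank is a description and not independent evidence. By Pearson r of log2 CPM over 27 embryos, the next most alike gene reached r = 0.730 with gene 836 (ENSBTAG00000046869) and r = 0.775 with gene 1517 (ENSBTAG00000009580), and the median over all genes was -0.133 and -0.168. On residuals from diet, size and sex letter the partner again ranked 1 in both lists, at r = 0.927, against 0.772 and 0.798 for the next gene. The residuals may keep part of the trends used in the choice, so this rank too is a description. Without embryos 22 and 25 the partner still ranked 1, at r = 0.976, but the next gene came to r = 0.959 with gene 836 and 0.925 with gene 1517, so the distance to other genes depended on those 2 embryos. Without the smallest embryo the partner's r was 0.945 and the next gene's 0.770 and 0.764.

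The most alike genes outside the pair were counted far less often. ENSBTAG00000046869 averaged 169 CPM (rank 961), with 208 ± 22.1 CPM (SD) in the 6 long embryos, 151 ± 33.8 CPM in the 10 short omega-3 embryos and 164 ± 27.3 CPM in the 11 short omega-6 embryos. ENSBTAG00000009580 averaged 177 CPM (rank 904), with 215 ± 16.2, 151 ± 23.4 and 181 ± 55.2 CPM in the same groups. Their order of group means is that of the pair, which follows in large part from their choice by correlation over the same embryos.

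Among the 190 pairs that the 20 most counted genes can form, 1 had a higher r of log2 CPM than genes 836 and 1517: the genes ranked 3 and 17, at 0.952, whose size slopes of 0.97 and 0.94 far exceed those of the pair. On residuals no pair was higher, and the second highest, ranks 4 and 12, had 0.820. The median over the 190 pairs was -0.04 on log2 CPM and -0.02 on residuals. Correlations among genes of the same libraries are given as a description.

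**Figure D4:**
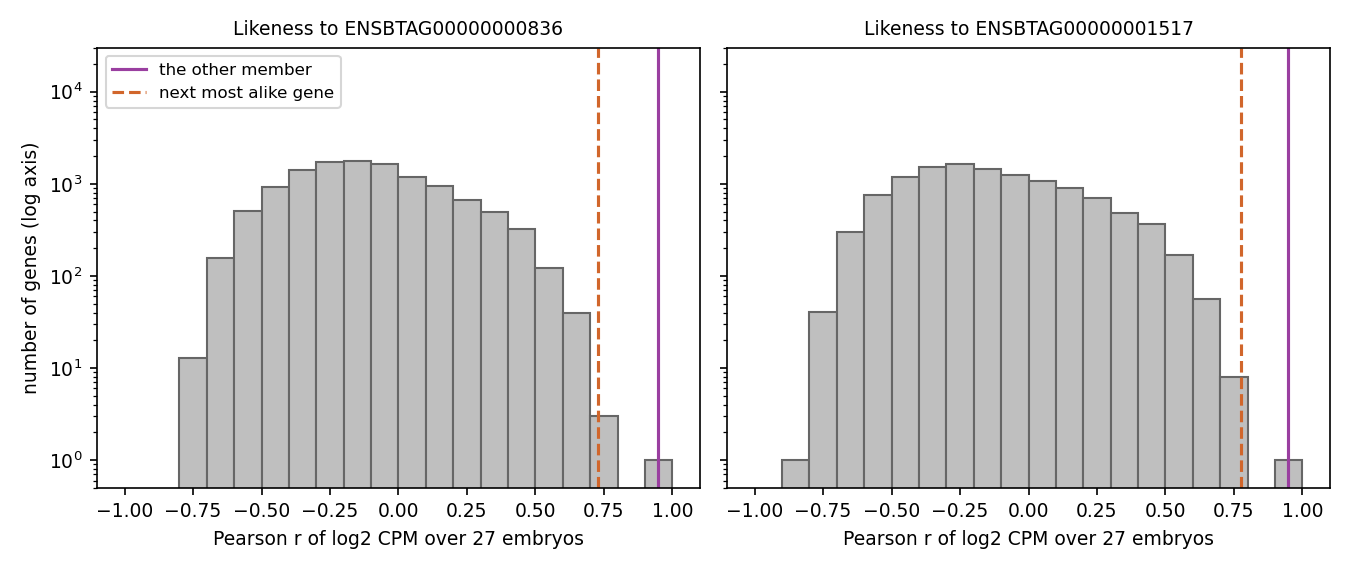
Number of genes (vertical, log axis) by their Pearson r of log2 CPM with gene 836 (left) and with gene 1517 (right) over 27 embryos, in steps of 0.1. The solid line marks the other gene of the pair at 0.949 and the dashed line the next most alike gene at 0.730 and 0.775, with no gene between.

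The counts of the genes were similar, with a ratio from 0.800 to 1.15, and the ratio varied less among embryos than either gene. Counts were not divided by transcript length, which is not known here, so the ratio compares reads and not molecules, and only its change between embryos can be read. Counts of gene 836 over those of gene 1517 averaged 1.03 ± 0.0691 (SD, n = 27). On the log2 scale the SD of the ratio was 0.10, against 0.18 for gene 836 and 0.26 for gene 1517, and it was 0.07 without embryo 22. The total count cancels in the ratio.

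Gene 1517 exceeded gene 836 in 5 embryos: the long embryos 01, 07 and 10, the largest short omega-3 embryo (11) and embryo 22. The ratio was 0.914, 0.982 and 1.05 (lowest, median and highest) in long omega-3 embryos. Short omega-3 embryos had 0.975, 1.05 and 1.15, and short omega-6 embryos 0.800, 1.06 and 1.12. All 6 long embryos lay below the median of the short omega-3 embryos, and 3 lay below every one of them. Group means were 0.985 ± 0.0556 (SD, n = 6), 1.05 ± 0.0466 (n = 10) and 1.04 ± 0.0852 (n = 11) in that order, so the long and short omega-3 means differed by more than 1 SD and the short groups by less.

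Embryo 22 stood apart from this course. It had 14059 CPM of gene 836 and 17567 CPM of gene 1517, a ratio of 0.800, while the lowest of the other 10 short omega-6 embryos had 1.01. Embryo 25, the other library that stood apart, had the highest omega-6 ratio, 1.12, at 13005 and 11622 CPM. Embryo 18 had levels as high as those of long embryos at a size number of 2.3 (14864 and 14377 CPM) and a ratio of 1.03.

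Over size the log2 ratio fitted a slope of -0.04 ± 0.02 (SE) per doubling beside diet and letter, and -0.04 ± 0.01 (SE) without embryo 22. Its diet term was 0.03 ± 0.04 (SE), and -0.02 ± 0.03 without embryo 22, so at equal size the diets differed in the ratio by less than the error. The correlation of the log2 ratio with log2 size was r = -0.436 (rho = -0.592) over all embryos, and -0.654 (rho = -0.654) without embryo 22. It was -0.638 (rho = -0.768) among omega-3 embryos and -0.278 (rho = -0.260) among the 11 omega-6 embryos, or -0.498 (rho = -0.220) in the 10 without 22. These values follow from 2 slopes used in the choice and are given without a test.

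**Figure D5:**
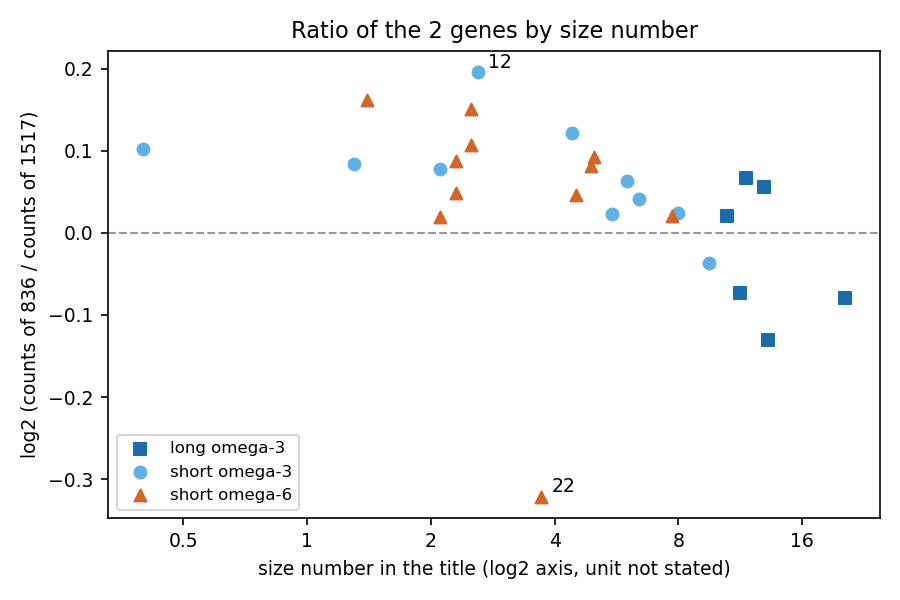
Log2 ratio of the counts of gene 836 over gene 1517 (vertical; the dashed line is equal counts) against the size number on a log2 axis, 1 point per embryo, by group. Most short embryos lie between 0 and 0.2, 3 of the 6 long embryos lie below 0, and embryo 22 is the lowest at -0.32.

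Neither gene differed detectably between embryos lettered m and f. Gene 836 averaged 12174 ± 1727 CPM (SD) over 15 m embryos and 11842 ± 1322 CPM (SD) over 12 f embryos, with a log2 difference (m minus f, group in the model) of 0.06 ± 0.09 (SE, edgeR adjusted p = 0.99998). Gene 1517 averaged 12119 ± 2547 and 11403 ± 1719 CPM, with a difference of 0.12 ± 0.12 (SE, edgeR adjusted p = 0.99998). In this comparison 46 of 11919 genes were called (0.386%), neither of the pair among them. Without embryo 22 the differences were -0.00023 ± 0.07 and 0.0024 ± 0.09 (SE), and without embryo 07 they were 0.08 ± 0.09 and 0.15 ± 0.12 (SE). The mean log2 ratio was 0.02 in m and 0.06 in f embryos, a difference of -0.04 (permutation test within groups, two-sided p = 0.356, n = 15 and 12). It was -0.06 without embryo 07 (permutation p = 0.154).

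Sequencing depth was not detectably related to the levels. With log2 total count gene 836 had r = -0.0827 (permutation p = 0.683, adjusted 0.683) and rho = -0.083 (permutation p = 0.681, adjusted 0.681). Gene 1517 had r = -0.141 (permutation p = 0.486, adjusted 0.683) and rho = -0.118 (permutation p = 0.556, adjusted 0.681). The log2 ratio had r = 0.207 (permutation p = 0.292, adjusted 0.683) and rho = 0.308 (permutation p = 0.119, adjusted 0.357). Adjustment was over these 3 measures, n = 27 in each. Without the 2 embryos farthest in total count r was -0.127, -0.193 and 0.259.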

How the data were processed

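Libraries came from an Illumina stranded mRNA kit and were sequenced from 1 end, per the labels' protocols. STAR and featureCounts are named without versions in the submitters' processing notes; build, annotation, strand setting and how shared reads were assigned: not given in the sources used here, so reads could be split between genes of similar sequence. The authors deposited raw read counts, as whole numbers, with the same identifiers in every file.

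CPM were computed from file totals; log2 CPM used a prior count of 2. Genes passing filterByExpr (minimum count 10, minimum total 15, minimum proportion 0.7 on the 3 groups) were fitted across the whole table with edgeR 4.0.16 in R 4.3.3 (TMM, quasi-likelihood F-test, two-sided, Benjamini-Hochberg). Models were group and sex letter, or sex letter, diet and log2 size number, in 27 embryos; and diet by log2 size with sex letter in 21 short embryos. SE is the log2 difference over the square root of F. Correlations and the ratio by letter used 100000 permutations, two-sided. DESeq2 1.42.0 and limma 3.58.1 (voom with quality weights), other scalings, filters and subsets were alternatives. Fits without embryo 22 alone, omega-6 embryos without 22 and omega-3 embryos without 14 were added after seeing the data. Scripts were tested on simulated data. Duplicates were looked for by chi-square over 351 library pairs; the lowest value, 13.6 per degree of freedom, is far above sampling noise.

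The members, lists and tests were chosen with earlier results of these data known. The genes named are the members and, for each, the gene outside the pair with the highest Pearson r of log2 CPM over 27 embryos; ENSBTAG00000045750 was added as a check of the letters. Marker lists could not be used, because identifiers and names are not paired.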

Additional observations from a re-analysis of the deposited data

How the results depend on the processing

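Of 168 alternative values, 140 kept their direction and, where tested, their side of the threshold, or where untested moved by less than 1 SE (counts of genes, less than 1.5 times); 24 moved further and 4 changed sign. No test of either gene crossed its threshold under any alternative run: adjusted p stayed at 0.836 or more for m against f (where the difference of gene 836 was -0.00023 without embryo 22) and at 0.510 or more for the slope difference, and the residual correlation stayed between 0.924 and 0.967. The diet difference in short embryos was -0.057 and -0.054 for genes 836 and 1517 with limma-voom, -0.12 and -0.11 without embryos 22 and 25, and -0.13 for gene 1517 without embryo 22. Diet at equal size was -0.069 and -0.066 with limma-voom, -0.080 and -0.067 without 22 and 25, and -0.10 for gene 1517 without 22; the cause was not tested. Size slopes were 0.061 and 0.094 in the 21 short embryos, -0.023 and 0.024 in the 11 omega-6 embryos, -0.040 and -0.0072 in these without 22, and 0.14 and 0.19 in omega-3 without 14; these fits use fewer embryos. Genes called between m and f numbered 78 with DESeq2, 126 with limma-voom, 86 without 22 and 25, 72 without 22 and 71 without 07. The slope difference called 1 gene without the filter, with DESeq2, with limma-voom and without 22. Depth did not limit either gene; the number of omega-6 embryos above a size number of 5, which is 1, limits what can be said of size under that diet. No paired analysis was possible because each embryo number occurs in 1 group only.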
